A study of Mus musculus with 6 samples.

Results

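The collagen crosslinking and hydroxylation enzymes are 10 genes in 3 families, taken by name from a table of 16494 genes: the lysyl hydroxylases Plod1, Plod2 and Plod3, the collagen prolyl 4-hydroxylase alpha subunits P4ha1, P4ha2 and P4ha3, and the lysyl oxidases Lox, Loxl1, Loxl2 and Loxl3. They were chosen by family and name, with earlier results of these data known. They do not include the lysyl oxidase Loxl4, which is counted below as a partner. They were followed across the cell types of the lower abdominal muscle (LAM) of 3 WT and 3 Aromhum male mice of strain FVB/N, aged 9 to 10 weeks, by single-cell RNA sequencing. Aromhum mice carry the human aromatase gene CYP19A1 under its own human promoters, so the transgene follows the human tissue pattern and is not limited to a chosen cell type. Their samples are labelled as scrotal hernia, and the WT samples as control. A comparison of the genotypes asks how an aromatase transgene that raises local estrogen goes together with the makeup of LAM cells.

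Collagen is modified in the order in which these families act. Inside the endoplasmic reticulum, prolyl 4-hydroxylases hydroxylate proline, which makes the triple helix stable at body temperature, and lysyl hydroxylases hydroxylate lysine. Outside the cell, copper-dependent lysyl oxidases oxidise lysine and hydroxylysine, and the aldehydes formed join neighbouring collagen or elastin molecules. Telopeptide hydroxylation by PLOD2 directs crosslinks towards the hydroxylysine type, which is known from scar tissue and fibrosis.

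The prolyl and lysyl hydroxylases use oxygen and iron, and members of both families are known targets of hypoxia-inducible factor (HIF). The 250 bases before the gene start were taken from a table of RefSeq promoters, build GRCm38.p6, which matched 5 of the 10 genes (Plod1, Plod3, P4ha1, P4ha2 and P4ha3). Lox, Loxl1, Loxl2, Loxl3 and Plod2 were not analysed here in this respect. Shown here are Plod1 and P4ha3, whose levels differed between genotypes in fibroblast-like cells, and P4ha1, whose level did not pass that test. Each is written 5′ to 3′ on the gene's strand, and capitals mark the HIF core, searched as ACGTG or GCGTG on both strands. They lie at chr4:147936777-147937026 (minus strand), chr7:100285270-100285519 (plus strand) and chr10:59323046-59323295 (plus strand).
Plod1: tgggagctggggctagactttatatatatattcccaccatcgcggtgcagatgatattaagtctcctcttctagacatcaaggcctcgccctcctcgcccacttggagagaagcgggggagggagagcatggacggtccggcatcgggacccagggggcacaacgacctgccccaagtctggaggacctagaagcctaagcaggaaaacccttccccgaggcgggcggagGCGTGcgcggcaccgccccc
P4ha3: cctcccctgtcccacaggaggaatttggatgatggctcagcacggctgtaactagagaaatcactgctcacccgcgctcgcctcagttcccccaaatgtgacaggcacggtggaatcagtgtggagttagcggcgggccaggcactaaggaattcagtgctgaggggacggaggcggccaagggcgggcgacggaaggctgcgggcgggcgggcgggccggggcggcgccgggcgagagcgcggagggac
P4ha1: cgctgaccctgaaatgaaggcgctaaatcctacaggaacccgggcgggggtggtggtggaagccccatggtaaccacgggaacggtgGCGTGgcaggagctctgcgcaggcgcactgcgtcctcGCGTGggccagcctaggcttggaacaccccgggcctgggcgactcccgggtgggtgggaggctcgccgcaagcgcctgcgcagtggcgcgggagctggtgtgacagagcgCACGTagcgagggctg
Plod3 held 4 HIF core matches, P4ha1 and P4ha2 held 3 each, Plod1 held 1 and P4ha3 held 0, and of 32851 promoters of this length 38.6% held at least 1. The estrogen response element (GGTCA and TGACC with 3 bases between them) was in 0.0639% of all promoters and the AP-1 motif (TGACTCA or TGAGTCA) in 4.46%, and neither was in the 5 promoters. These matches describe letters in a short window and no binding.

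Counts in the table are of unique molecular identifiers (UMIs), each a captured mRNA molecule, for 63647 cell barcodes. Levels are given as CPM, the UMIs of a gene for every 1000000 UMIs of the same mouse and cell group. The libraries held 64958237 to 72876541 UMIs in WT and 92652109 to 111826460 in Aromhum, so Aromhum values rest on more molecules. UMIs of CYP19A1 were 0 in each WT library and 770 to 797 in the Aromhum libraries. WT 2 stood apart by its mitochondrial share, with a median of 6.62% against 3.58% to 4.36% in the other 5 libraries. Of 63175 barcode sequences, 471 occurred in 2 or 3 libraries. Cells were grouped by clustering and named from marker genes, and each name stands for cells like that type. The fibroblast-like cells held Pdgfra and Dcn in every mouse and were split further into Esr1hi and Mmp3hi hernia-associated fibroblasts (HAFs), tenocytes and 3 groups named by their leading genes (Prg4 Angptl1, Dmkn, and Ccl11 Myoc). A cluster with Cd3 genes also held the mast cell genes Cma1, Mcpt4 and Cpa3 among its top genes and is called the T and mast cell group.

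In WT LAM, fibroblast-like cells held on average most UMIs of 7 of the 10 genes, from 59.2% for P4ha2 to 85.0% for P4ha3. They held less of Plod1 (36.5% ± 13.5), Plod3 (40.1% ± 12.6) and P4ha1 (43.2% ± 11.3; SD, n = 3 each). In Aromhum LAM these 3 shares were 73.3% ± 7.10, 67.7% ± 5.42 and 68.9% ± 4.36 (SD, n = 3 each), and those of the other genes ran up to 93.9% for P4ha3. Esr1hi HAFs held 11.9% ± 2.2 (SD, n = 3) of all Plod2 UMIs in WT and 48.3% ± 11.6 (SD, n = 3) in Aromhum LAM. For P4ha3 the same shares were 8.70% ± 2.36 and 44.5% ± 3.11 (SD, n = 3 each). Esr1hi HAFs themselves were 2.97%, 2.03% and 1.88% of barcodes in WT and 11.6%, 13.2% and 6.67% in Aromhum mice. The share of the UMIs of all genes that these cells or all fibroblast-like cells held is not given. The enzyme shares therefore cannot be set against it. The shares count both how many such cells were caught and how much each held, which cannot be told apart in them, and the cells were clustered on genes that differ between the genotypes.

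The lysyl hydroxylases differed in how their levels spread over the cells. Plod2 averaged 297 ± 184 CPM in Esr1hi HAFs (SD over 6 mice), followed by Prg4 Angptl1 fibroblasts at 170.3 ± 81.5 CPM and tenocytes at 165 ± 63.7 CPM, and its lowest levels were 3.01 ± 2.54 CPM in macrophages and 1.86 ± 3.40 CPM in the T and mast cell group. The top 4 groups of Plod2 did not differ from their neighbours in the order beyond the SD, a spread that held both genotypes. That SD, here and below, is a spread between mice and ignores that the same mice supplied each group. Within every mouse Plod2 was higher in Esr1hi HAFs than in Prg4 Angptl1 fibroblasts. The order of the groups was not tested within mice. Plod1 was highest outside the fibroblasts, with 115 ± 13.2 CPM in lymphatic endothelial cells, and Esr1hi HAFs followed at 99.5 ± 21.6 CPM. Plod3, the enzyme that also carries glycosyltransferase activity, was spread widely, from 56.9 ± 4.13 CPM in glial cells over 52.2 ± 10.3 CPM in Prg4 Angptl1 fibroblasts to 8.39 ± 3.68 CPM in myonuclei and 4.65 ± 6.61 CPM in the T and mast cell group. For Plod1 and Plod3, too, the first group did not differ from the next beyond the SD, and Esr1hi HAFs were among the 3 highest groups of each lysyl hydroxylase.

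Of the prolyl 4-hydroxylase subunits, P4ha1 was widespread. Its means ran from 103 ± 11.6 CPM in Esr1hi HAFs, 103 ± 15.8 CPM in tenocytes and 97.3 ± 11.0 CPM in mesothelial cells down to 15.2 ± 3.30 CPM in myonuclei, and the 8 highest groups followed each other within the SD. P4ha2 had its highest mean in Prg4 Angptl1 fibroblasts, at 93.7 ± 31.8 CPM, within the SD of the next group. P4ha3 had its 6 highest means in the fibroblast groups, from 48.2 ± 44.2 CPM in Mmp3hi HAFs (n = 5) and 45.5 ± 38.2 CPM in Esr1hi HAFs to 14.0 ± 10.6 CPM in Ccl11 Myoc fibroblasts. Glial cells (8.51 ± 4.37 CPM), mesothelial cells (5.80 ± 7.45 CPM) and myonuclei (5.44 ± 6.98 CPM) followed, and the remaining 6 groups had means of 0.267 to 1.88 CPM. The wide SDs hold both genotypes. Over WT mice alone P4ha3 was at 19.2, 29.2 and 23.0 CPM in Prg4 Angptl1 fibroblasts, above its 11.8, 11.7 and 16.3 CPM in Esr1hi HAFs.

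The lysyl oxidases had their highest means in fibroblast groups. Lox, which initiates crosslinking of collagen and elastin, averaged 948 ± 170 CPM in Mmp3hi HAFs (n = 5) and 788 ± 154 CPM in tenocytes, and both lay beyond the SD above the 472 ± 90.6 CPM of Prg4 Angptl1 fibroblasts. Loxl1, known for its part in elastic fibres, was led by Dmkn fibroblasts at 495 ± 106 CPM and Esr1hi HAFs at 434 ± 112 CPM. Loxl2 averaged 371 ± 139 CPM in Esr1hi HAFs and 306 ± 109 CPM in Prg4 Angptl1 fibroblasts, within the SD of each other. Loxl3 averaged 42.3 ± 7.97 CPM in tenocytes and 42.0 ± 26.3 CPM in Esr1hi HAFs over both genotypes. In WT alone it was at 30.1, 38.5 and 41.9 CPM in tenocytes, and its Esr1hi HAF levels of 33.9, 71.0 and 78.9 CPM had the higher mean. In endothelial cells Loxl1, Loxl2 and Loxl3 had their lowest means of all 15 groups, at 2.85 ± 1.54, 7.62 ± 0.757 and 0.355 ± 0.240 CPM.

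**Figure D1:**
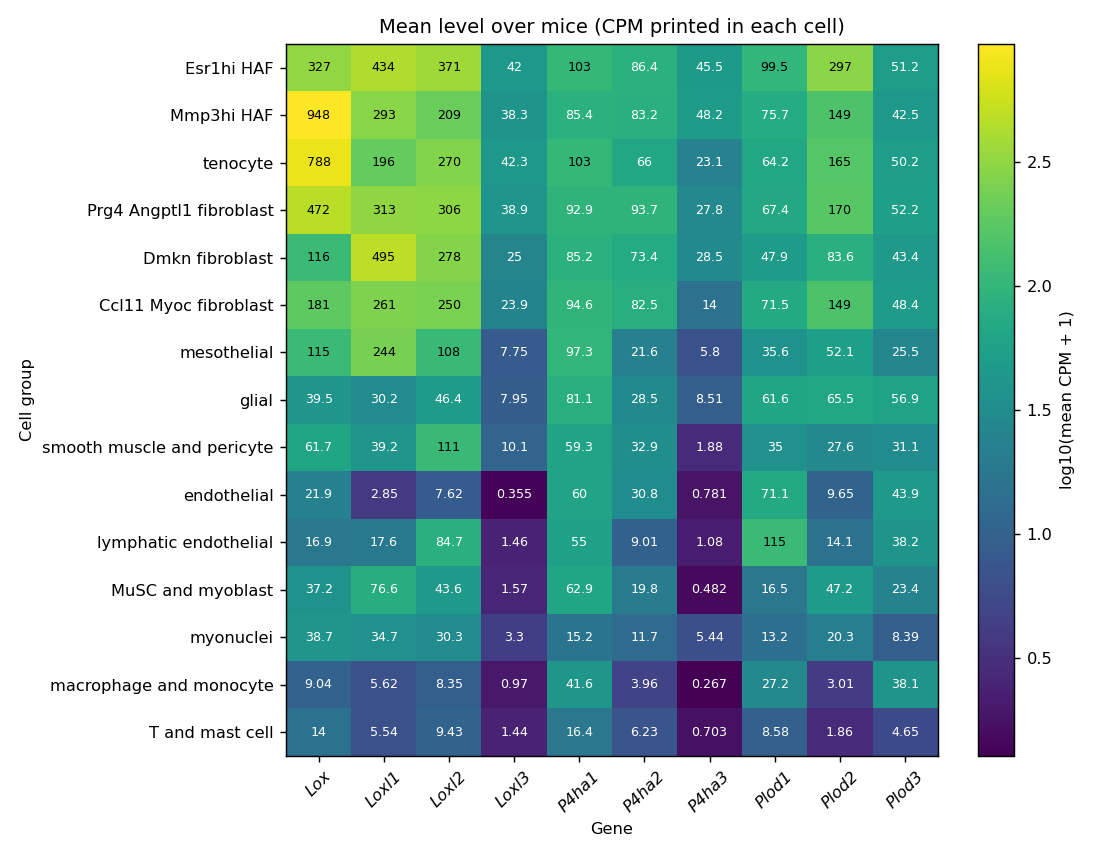
Mean CPM of each gene (columns) in each of 15 cell groups (rows) over 5 or 6 mice, printed in each cell and coloured as log10(mean CPM + 1). Lox is highest in Mmp3hi HAFs (948 CPM), Plod1 in lymphatic endothelial cells (115 CPM) and Plod2 in Esr1hi HAFs (297 CPM).

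In fibroblast-like cells, 5 of the 10 enzymes rose in Aromhum LAM and 0 fell: P4ha3 4.50-fold, Plod2 3.22-fold, Plod1 1.60-fold, Loxl2 1.59-fold and Loxl1 1.53-fold (edgeR quasi-likelihood test on UMI sums per mouse, Benjamini-Hochberg adjusted over 14040 genes). Of all 14040 genes, 12.5% passed this test, 7.22% as higher and 5.33% as lower in Aromhum. The median log2 fold change of the 10 enzymes was 0.64, against 0.01 over all genes tested. The range of CPM did not overlap between genotypes for 6 enzymes, each higher in Aromhum, which holds for 22.3% of all genes, and 4 enzymes overlapped.

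Among the lysyl hydroxylases, Plod2 was at 73.0, 91.8 and 104 CPM in WT 1, WT 2 and WT 3 and at 355, 336 and 178 CPM in Aromhum 1, Aromhum 2 and Aromhum 3. Each Aromhum mouse was above each WT mouse, and Aromhum 3 was the lowest of its group. The log2 fold change was 1.69 ± 0.29 (SE), with an edgeR adjusted p of 0.024. Plod1, which hydroxylates lysines of the triple helix, was at 51.8, 55.5 and 66.2 CPM in WT and at 102, 89.3 and 89.9 CPM in Aromhum mice. The groups again did not overlap, and its log2 fold change was 0.68 ± 0.13 (SE; edgeR adjusted p = 0.026). Plod3 was at 42.0, 43.8 and 43.2 CPM in WT and 55.5, 48.1 and 53.8 CPM in Aromhum mice. Its groups did not overlap either, but the difference of 0.27 ± 0.09 on the log2 scale did not pass the threshold (edgeR adjusted p = 0.085).

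Among the prolyl 4-hydroxylase subunits, P4ha3 was at 12.4, 15.1 and 11.6 CPM in WT mice and at 75.2, 71.1 and 30.8 CPM in Aromhum mice. The 3 WT mice lay close together, while Aromhum 3 was well under the other two of its group. The log2 fold change was 2.17 ± 0.35 (SE; edgeR adjusted p = 0.022). P4ha1 was at 73.4, 88.2 and 95.8 CPM in WT and 112, 95.0 and 102 CPM in Aromhum mice. P4ha2 was at 58.8, 66.8 and 77.3 CPM in WT and 101, 70.2 and 101 CPM in Aromhum mice. Both overlapped between genotypes, with log2 fold changes of 0.25 ± 0.12 for P4ha1 and 0.40 ± 0.16 for P4ha2 and edgeR adjusted p of 0.20 and 0.14.

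Among the lysyl oxidases, Loxl1 was at 209, 278 and 299.6 CPM in WT and 376, 375 and 466 CPM in Aromhum mice. Loxl2, which oxidises collagen IV among other substrates, was at 160.3, 251 and 242 CPM in WT and 352, 301 and 397 CPM in Aromhum mice. Neither overlapped between genotypes, and the log2 fold changes were 0.61 ± 0.14 for Loxl1 (edgeR adjusted p = 0.041) and 0.67 ± 0.17 for Loxl2 (edgeR adjusted p = 0.048). Lox was at 334, 220.0 and 251 CPM in WT and 517, 506 and 294 CPM in Aromhum mice, so that Aromhum 3 lay below WT 1. Its log2 fold change of 0.69 ± 0.28 was as large as that of Loxl2 but had the wider error and did not pass (edgeR adjusted p = 0.14). Loxl3 was at 24.9, 36.8 and 36.7 CPM in WT and 26.9, 22.6 and 31.4 CPM in Aromhum mice, with a log2 fold change of -0.30 ± 0.16 (edgeR adjusted p = 0.24).

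**Figure D2:**
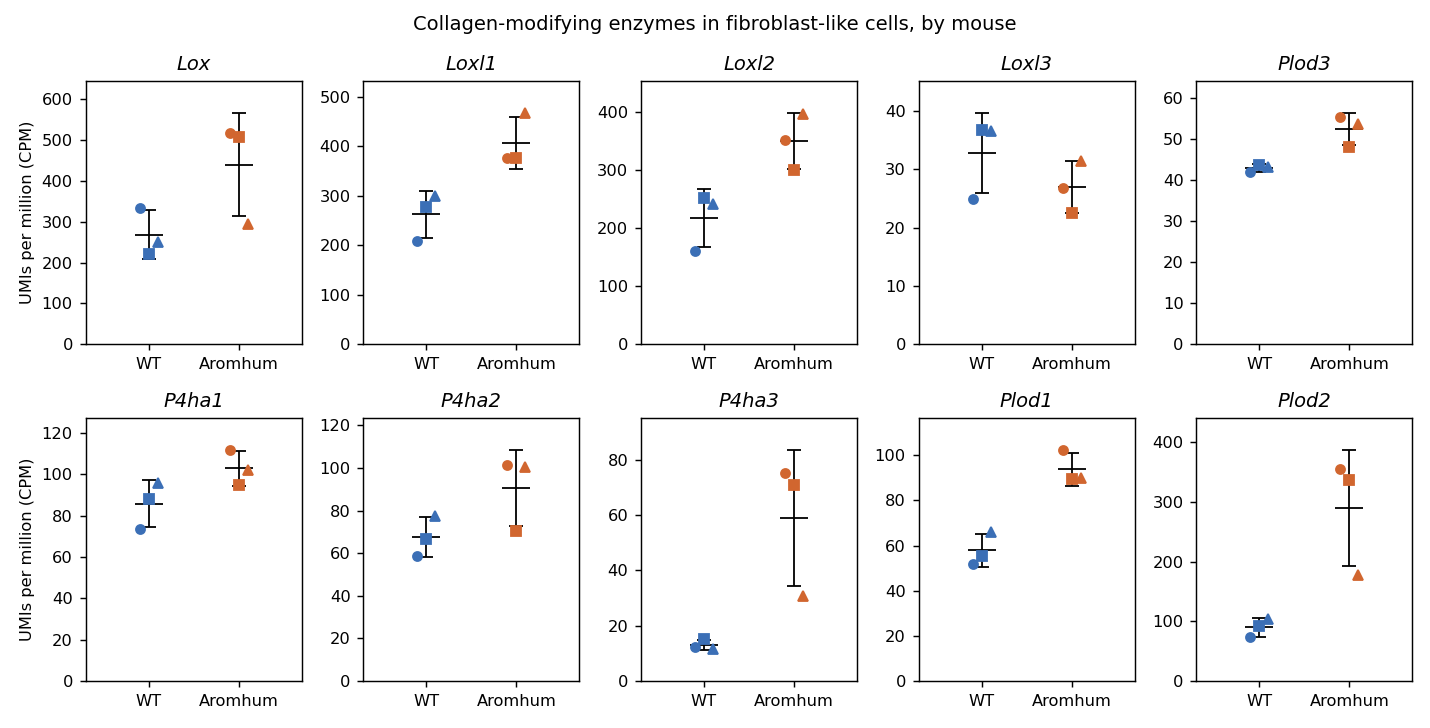
CPM of each enzyme in all fibroblast-like cells, with WT mice in blue and Aromhum mice in orange. Circles, squares and triangles are replicates 1, 2 and 3, and bars show the mean and SD of 3 mice. P4ha3 is at 11.6 to 15.1 CPM in WT and at 30.8 to 75.2 CPM in Aromhum mice, and Lox overlaps between genotypes.

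These calls depended on which mice and barcodes were counted. No enzyme passed edgeR's test when WT 1, WT 2, WT 3, Aromhum 1 or Aromhum 2 was left out. In these fits 4 to 120 of all genes passed in fibroblast-like cells, and 5 to 8 of the 10 enzymes had an unadjusted p under 0.05. The share of all genes with such an unadjusted p is not given, here or below. Counts of enzymes by unadjusted p therefore cannot be set against it. Without Aromhum 3, 5 enzymes and 4009 genes passed, with Lox (0.92, edgeR adjusted p = 0.018) in place of Loxl2. Loxl2 passed in no fit that left out a mouse (edgeR adjusted p from 0.054 to 0.15), and it was just over the threshold with RLE size factors (0.050), without a filter on low counts (0.055), with the replicate number as a block (0.060), at resolution 0.4 (0.052) and without the unnamed fibroblast clusters (0.050). The log2 fold change stayed between 1.49 and 1.95 for Plod2 and between 1.93 and 2.48 for P4ha3 in these fits. Within the study's own limits on barcodes (200 to 2500 genes, a floor of 1000 UMIs and a mitochondrial share of 5% or less; its further removal of outliers by median absolute deviation was not applied here), no enzyme and 1 of 10923 genes passed (0.00915%), and 5 of the 10 had an unadjusted p under 0.05. Plod2 then differed by 0.82 (edgeR adjusted p = 0.18) and P4ha3 by 1.57 (edgeR adjusted p = 0.19), and the P4ha3 level of Aromhum 3 was then below that of each WT mouse, at 7.11 CPM against 7.80 to 7.89 CPM. The limits together kept 549 to 1785 fibroblast-like cells of a WT mouse and 647 to 2831 of an Aromhum mouse, out of 1712 to 3706 and 3656 to 7051. With the mitochondrial limit alone, 5 enzymes passed, and the share of all genes that passed there is not given.

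The sum over fibroblast-like cells mixes a change in the makeup of the fibroblasts with a change in each cell, and these cannot be told apart in it. Without Esr1hi and Mmp3hi HAFs, 3 enzymes still passed and 3.42% of 13359 genes did. They were Plod2 at 1.03 on the log2 scale (edgeR adjusted p = 0.031), P4ha3 at 1.44 (0.033) and Loxl1 at 0.71 (0.031). Plod1 differed by 0.33 there (edgeR adjusted p = 0.18) and Loxl2 by 0.49 (edgeR adjusted p = 0.073). Genes that respond to tissue dissociation moved in the other direction. All 13 genes of that list were measured, their summed level was 15230 to 17574 CPM in WT and 8703 to 11879 CPM in Aromhum fibroblast-like cells, and 5 of the 13 fell, 0 rose and 8 did not pass. Their part in the enzyme differences was not tested.

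Esr1hi HAFs, named from Esr1, Greb1, Pgr and 7 further markers of the study, numbered 302, 220 and 149 cells in WT 1, WT 2 and WT 3 and 1392, 1813 and 599 cells in Aromhum 1, Aromhum 2 and Aromhum 3. The study's own markers of this population included Plod2, and those of tenocytes included Lox, but neither gene was used here to name cells. Within Esr1hi HAFs, 3 enzymes rose and 1 fell in Aromhum mice, where 19.7% of 11718 genes passed, 9.63% as higher and 10.1% as lower. Plod2 was at 111, 126 and 226 CPM in WT and 534, 508 and 275 CPM in Aromhum mice. P4ha3 was at 11.8, 11.7 and 16.3 CPM in WT and 93.6, 88.2 and 51.2 CPM in Aromhum mice. Both were higher in every Aromhum mouse, with log2 fold changes of 1.55 ± 0.35 for Plod2 (edgeR adjusted p = 0.022) and 2.61 ± 0.30 for P4ha3 (edgeR adjusted p = 0.0028).

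Plod1 was at 67.1, 88.8 and 88.8 CPM in WT and 124, 110.2 and 118 CPM in Aromhum Esr1hi HAFs, a log2 fold change of 0.56 ± 0.14 (edgeR adjusted p = 0.032). This call was lost when any mouse other than Aromhum 3 was left out (edgeR adjusted p from 0.063 to 0.11), with the replicate number as a block (0.051), at resolution 1.2 (0.069), with the table's column blocks as cell groups (0.063) and in the cluster with most WT cells (0.34). Loxl3 was at 33.9, 71.0 and 78.9 CPM in WT and at 20.2, 19.2 and 28.5 CPM in Aromhum mice. Each Aromhum mouse was below each WT mouse, and Loxl3 fell by 1.40 on the log2 scale (SE 0.29; edgeR adjusted p = 0.017). Loxl2 was at 133, 345 and 363 CPM in WT and 437, 393 and 556 CPM in Aromhum mice, which did not overlap but did not pass (edgeR adjusted p = 0.15). The median log2 fold change was 0.39 for the 10 enzymes and -0.01 for all genes.

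Most WT and most Aromhum Esr1hi HAFs fell into different clusters. The cluster with most WT cells held 284, 220 and 149 WT cells and 83, 88 and 158 Aromhum cells. Within it 1 enzyme passed, P4ha3, with a log2 fold change of 2.08 (edgeR adjusted p = 0.013), where 2.77% of 9490 genes passed. Plod2 was at 110.3, 126 and 226 CPM in WT and 646, 444 and 279 CPM in Aromhum mice there, with no overlap and a difference of 1.51 (edgeR adjusted p = 0.050, just over the threshold). The Plod2 difference was thus close in size to that over all Esr1hi HAFs, that of P4ha3 was smaller, and that of Loxl3 was -0.78 (edgeR adjusted p = 0.20). No mouse was left out in this single cluster. Over all Esr1hi HAFs, Plod2 was 1.35 to 1.95 and P4ha3 2.42 to 2.86 higher on the log2 scale in every fit that left out a mouse. The number of enzymes that passed in those fits ran from 1 to 5. P4ha3 passed in each of these fits. Plod2 passed without WT 3 or Aromhum 3 and not without one of the other 4 mice (edgeR adjusted p from 0.064 to 0.082), and Loxl3 passed without WT 1 or Aromhum 3 and not without one of the other 4 (0.057 to 0.068).

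The enzymes that passed were not the same set in the other fibroblast groups. In Prg4 Angptl1 fibroblasts Plod2, Loxl2, Loxl1 and P4ha2 rose, and 4.95% of 10646 genes passed, 2.49% as higher. Plod2 was there at 100.5, 91.9 and 103 CPM in WT and at 255, 266 and 206 CPM in Aromhum mice, with a log2 fold change of 1.21 ± 0.12 (SE; edgeR adjusted p = 0.0028). Loxl2 was at 173, 223 and 228 CPM in WT and at 407, 401 and 405 CPM in Aromhum mice, with a log2 fold change of 0.87 ± 0.12 (SE; edgeR adjusted p = 0.0078). The Aromhum mice lay close together for Loxl2 and above each WT mouse for both genes. P4ha3 did not pass there (0.32, edgeR adjusted p = 0.30). The number of enzymes that passed in this group was 2 without WT 2 or Aromhum 1, 1 at clustering resolution 1.2, 1 within the study's barcode limits and 0 at resolution 0.4 (5 with an unadjusted p under 0.05 in edgeR). For such other settings, here and in the groups below, the share of all genes that passed is not given unless printed beside the count. Those counts cannot be set against it.

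In Ccl11 Myoc fibroblasts, where 3.28% of 11421 genes passed and 1.85% did as higher, P4ha3 was at 5.76, 5.81 and 3.46 CPM in WT and 28.2, 24.4 and 16.2 CPM in Aromhum mice (log2 fold change 2.15 ± 0.26, edgeR adjusted p = 0.0050). Plod2 rose there as well, by 1.50 ± 0.21 (edgeR adjusted p = 0.010), but not past the threshold without Aromhum 2. No enzyme passed in this group within the study's barcode limits or with column blocks as cell groups (3 with an unadjusted p under 0.05 in edgeR in each). In Dmkn fibroblasts Plod2 was the enzyme that passed (0.95 ± 0.15, edgeR adjusted p = 0.044), where 0.584% of 11133 genes passed, 0.305% as higher. Plod2 was at 49.6, 67.1 and 54.9 CPM in WT and 116, 116 and 98.3 CPM in Aromhum mice. In this group 9 of the 10 enzymes had an unadjusted p under 0.05. Plod1 differed by 0.79 (edgeR adjusted p = 0.051) and P4ha3 by 1.89 (0.054), both just over the threshold. In Mmp3hi HAFs, where WT 2 had too few cells and was left out of the fit, Plod2 was at 34.0 CPM in WT 1 and 24.0 CPM in WT 3 against 312, 270.2 and 107 CPM in the Aromhum mice, with 11 UMIs from 37 cells in WT 3 and 83 UMIs from 53 cells in Aromhum 3 (2.96 ± 0.51, edgeR adjusted p = 0.039; 1.31% of 10408 genes passed, 0.48% as higher). The Plod2 calls in Dmkn fibroblasts and Mmp3hi HAFs were lost in every fit run that left out a mouse other than Aromhum 3. In Mmp3hi HAFs the fits without WT 1 or WT 3 held 1 WT mouse, which was assumed to vary like the Aromhum mice. In the main fit of these HAFs 8 of the 10 enzymes had an unadjusted p under 0.05. P4ha2 differed by 1.41 (edgeR adjusted p = 0.070) and P4ha3 by 2.22 (0.10). With column blocks as cell groups no enzyme passed there (3 with an unadjusted p under 0.05). In Dmkn fibroblasts none passed within the study's barcode limits or at resolution 1.2 (1 and 5 with an unadjusted p under 0.05). With the replicate number as a block 4 did. In tenocytes 0 of 10 enzymes and 0.668% of 8534 genes passed in edgeR, and 5 enzymes had an unadjusted p under 0.05. Loxl1 was just over the threshold (0.59 ± 0.13, edgeR adjusted p = 0.059), and DESeq2 called this enzyme alone. In edgeR 1 enzyme passed without the filter on low counts, with the replicate number as a block and at resolutions 0.4 and 1.2. Plod2 there was at 105, 119.8 and 148 CPM in WT and at 224, 263 and 131 CPM in Aromhum mice, which overlapped (0.64, edgeR adjusted p = 0.19). Without Aromhum 3 it passed in tenocytes as well (0.88, edgeR adjusted p = 0.014), and no difference between the fibroblast groups was tested.

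**Figure D3:**
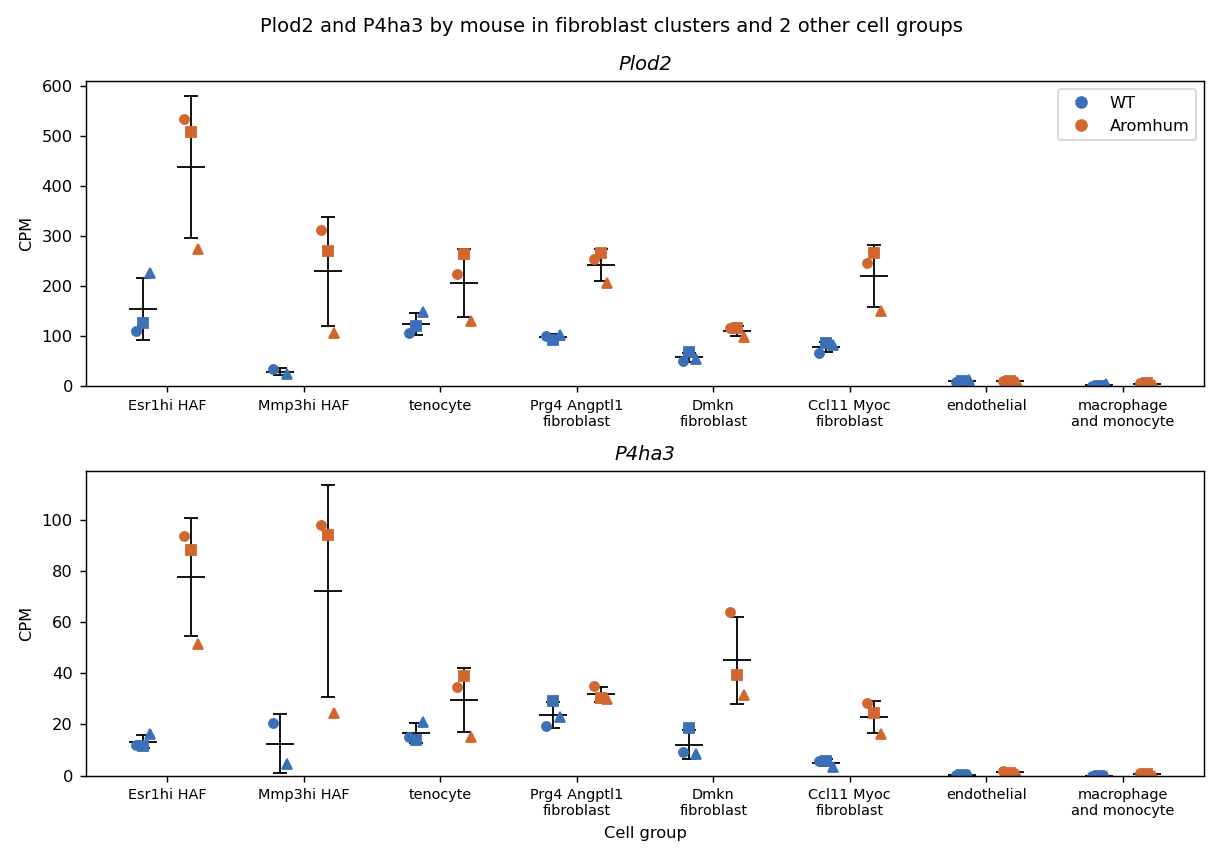
CPM of Plod2 (top) and P4ha3 (bottom) in 6 fibroblast groups, endothelial cells and macrophages, by mouse. WT mice are blue and Aromhum mice orange, circles, squares and triangles are replicates 1, 2 and 3, and bars show the mean and SD of the 3 mice (2 in WT Mmp3hi HAFs). Plod2 in Prg4 Angptl1 fibroblasts lies at 91.9 to 103 CPM in WT and 206 to 266 CPM in Aromhum mice, and in tenocytes the genotypes overlap.

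Outside the fibroblasts, smooth muscle cells and pericytes had 2 enzymes that rose, Loxl2 and Plod2, where 1.43% of 9418 genes passed, 1.02% as higher. Loxl2 was at 49.7, 77.5 and 66.4 CPM in WT and 176, 174 and 122 CPM in Aromhum mice (log2 fold change 1.21 ± 0.19, edgeR adjusted p = 0.032). Plod2 was at 17.1, 16.6 and 17.6 CPM in WT and 37.0, 44.4 and 33.2 CPM in Aromhum mice (1.08 ± 0.18, edgeR adjusted p = 0.032). Neither passed in edgeR when WT 1, WT 2, WT 3, Aromhum 1 or Aromhum 2 was left out (3 or 4 enzymes with an unadjusted p under 0.05), and neither was called under the mitochondrial limit alone, when 6 enzymes could be tested (0 with an unadjusted p under 0.05 in edgeR). Within the study's barcode limits only 2 enzymes had enough UMIs to be tested, which says little about either. The 6 fibroblast markers, none at 0, summed to 2196 to 4200 CPM in these WT barcodes and 3548 to 4347 CPM in the Aromhum ones, against 35514 to 42423 CPM in fibroblast-like cells. Their part in both differences was not tested.

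No enzyme passed in the main edgeR fit of 6 further groups, in which few genes passed in all. These were 0.29% in mesothelial cells, 0.426% in glial cells, 0.0139% in myonuclei and 1.82% in muscle stem cells and myoblasts. In macrophages and monocytes 0.0% passed, and 0.0659% did in lymphatic endothelial cells. In these 6 groups 1 to 4 enzymes had an unadjusted p under 0.05, and DESeq2 called 2 in mesothelial cells (Plod2 and P4ha3), 2 in muscle stem cells and myoblasts (Plod2 and Lox) and 1 in lymphatic endothelial cells (Loxl1). Without the filter, edgeR called Loxl1 in lymphatic endothelial cells (2.52, adjusted p = 3.7e-05) and Plod2 (0.96, adjusted p = 0.016) and Lox (1.37, adjusted p = 0.025) in muscle stem cells and myoblasts. In the main fit this Loxl1 difference was of like size but did not pass (2.54, edgeR adjusted p = 0.13). Loxl1 was scarce and uneven there, at 17.6 ± 16.7 CPM (SD over 6 mice), so the small adjusted p rests on the change of fit. The share of all genes that passed without the filter is not given. Without Aromhum 3, edgeR called Plod2, Lox and P4ha3 in mesothelial cells and Plod2, Lox and Loxl1 in muscle stem cells and myoblasts. P4ha3 had too few UMIs for the main test in mesothelial cells. It passed the filter without Aromhum 3 through the other Aromhum mice, so its mesothelial calls, that of DESeq2 included, are weak support. Loxl1 also passed in lymphatic endothelial cells without Aromhum 1 and in glial cells without WT 1. With all mice and the filter, edgeR called 1 enzyme in glial cells with column blocks as cell groups. In muscle stem cells and myoblasts it called 1 with the replicate number as a block and 1 under the mitochondrial limit alone. In the T and mast cell group no enzyme had enough UMIs to be tested. Over the sum of all barcodes, in which the number of each cell type and its RNA cannot be told apart, 7 of the 10 enzymes were higher, and 23.6% of 15334 genes passed, 12.4% as higher.

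In endothelial cells 9 enzymes could be tested, and Loxl1 and P4ha3 rose, where 13.5% of 12227 genes passed, 7.81% as higher. Both were scarce. Loxl1 was at 1.22, 1.92 and 1.57 CPM in WT and 3.08, 4.42 and 4.88 CPM in Aromhum mice, with 16 to 34 and 31 to 69 UMIs per mouse (log2 fold change 1.39 ± 0.27, edgeR adjusted p = 0.014). P4ha3 rested on 3 to 9 UMIs in a WT mouse and 8 to 19 in an Aromhum mouse (1.90 ± 0.49, edgeR adjusted p = 0.034). It passed the filter on low counts through the Aromhum mice, so its call is weak support: it was lost without that filter (edgeR adjusted p = 0.051) and when any mouse other than Aromhum 3 was left out (0.055 to 0.17), and DESeq2 gave no adjusted p. Within the study's barcode limits P4ha3 was too scarce to be tested, and of 8 enzymes tested only Lox passed (1.08, edgeR adjusted p = 0.023), as did 7.92% of 10110 genes, and Loxl1 differed by 0.85 (edgeR adjusted p = 0.18). For comparison, the T and mast cell group, which should lack Loxl1, held 0 to 4 Loxl1 UMIs per mouse and averaged 5.54 ± 4.84 CPM (SD, n = 6), too few UMIs to set a background level.

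Collagen genes of fibroblasts were also higher in these endothelial barcodes, while Dcn overlapped between genotypes. Col3a1 was at 27.0 to 38.7 CPM in WT and 105 to 121 CPM in Aromhum mice and Col1a1 at 18.6 ± 2.61 CPM and 53.9 ± 7.35 CPM (SD, n = 3 each). Dcn was at 182, 129 and 99.0 CPM in WT and 122, 168 and 173 CPM in Aromhum mice. In fibroblast-like cells Dcn was itself lower in Aromhum mice (15490 to 19037 CPM against 27464 to 32384 CPM in WT), while Col3a1 (log2 fold change 0.98) and Col1a1 (0.90) were higher there. The 6 fibroblast markers, none of them at 0, summed to 159 to 258 CPM and 351 to 401 CPM. In endothelial barcodes without any UMI of Dcn, Col1a1, Col1a2 or Col3a1, none of the 7 enzymes with enough UMIs passed in edgeR (1 with an unadjusted p under 0.05), while 6.21% of 10173 genes did. Loxl1 and P4ha3 were too scarce there to be tested. Loxl1 was then at 1.24 ± 0.34 CPM in WT and 3.97 ± 2.53 CPM in Aromhum mice (SD, n = 3 each), from 3 to 12 UMIs per mouse. The part of fibroblast RNA in the Loxl1 difference was not tested further. The well-measured enzymes of endothelial cells did not pass: Plod1 was at 57.1, 81.4 and 79.6 CPM in WT and 64.6, 68.8 and 75.0 CPM in Aromhum mice (-0.06 ± 0.14, edgeR adjusted p = 0.82), and P4ha1 was at 47.8 to 72.8 CPM in WT and 56.8 to 63.2 CPM in Aromhum mice (0.03 ± 0.16, edgeR adjusted p = 0.93). Plod3 differed by 0.31 ± 0.13 (edgeR unadjusted p = 0.041, adjusted p = 0.14) and P4ha2 by 0.24 ± 0.28 (edgeR adjusted p = 0.60). Within the study's barcode limits Plod3 did not overlap, at 31.8 to 39.9 CPM in WT and 41.0 to 48.5 CPM in Aromhum mice.

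The genotype difference itself differed between fibroblast-like and endothelial cells for 4 of 9 enzymes, and for 13.7% of 11904 genes (limma on within-mouse differences of log2 CPM, Benjamini-Hochberg adjusted). It was larger in fibroblast-like cells for Plod2 by 1.72 ± 0.25 on the log2 scale (limma adjusted p = 0.010), for Loxl2 by 0.83 ± 0.17 (0.022) and for Plod1 by 0.73 ± 0.17 (0.029). In endothelial cells Plod2 was at 8.45, 9.78 and 11.9 CPM in WT and 9.71, 9.26 and 8.85 CPM in Aromhum mice, with full overlap. The difference was larger in endothelial cells for Loxl1 (-0.70 ± 0.17, limma adjusted p = 0.033), which rests on the low endothelial UMIs given above. Within the study's limits on barcodes 0 of 8 enzymes passed this test (3 with an unadjusted p under 0.05). Leaving out a mouse gave 1 to 4, with 1 without WT 2 and 2 without WT 3, Aromhum 1 or Aromhum 2. Plod2 passed in each of these fits (limma adjusted p up to 0.041). The other enzymes did not, with limma adjusted p up to 0.081 for Loxl2, 0.10 for Plod1 and 0.10 for Loxl1.

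With the blocks of the table's columns as cell groups, endothelial Plod2 was at 12.6, 11.5 and 14.2 CPM in WT and 31.5, 35.8 and 13.6 CPM in Aromhum mice, and its log2 fold change turned from -0.12 to 1.05. The fibroblast markers summed to 440 to 1494 CPM in the WT and 1294 to 3355 CPM in the Aromhum barcodes of those blocks. The difference between cell types was then 0.69 for Plod2 (limma adjusted p = 0.021) and 0.69 for Plod1 (0.032), and it did not pass for Loxl2 (-0.020, limma adjusted p = 0.96) or Loxl1 (-1.30, 0.094). Under the mitochondrial limit alone Plod2, Loxl2 and Plod1 passed, and Loxl1 did not (-0.20, limma adjusted p = 0.59).

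**Figure D4:**
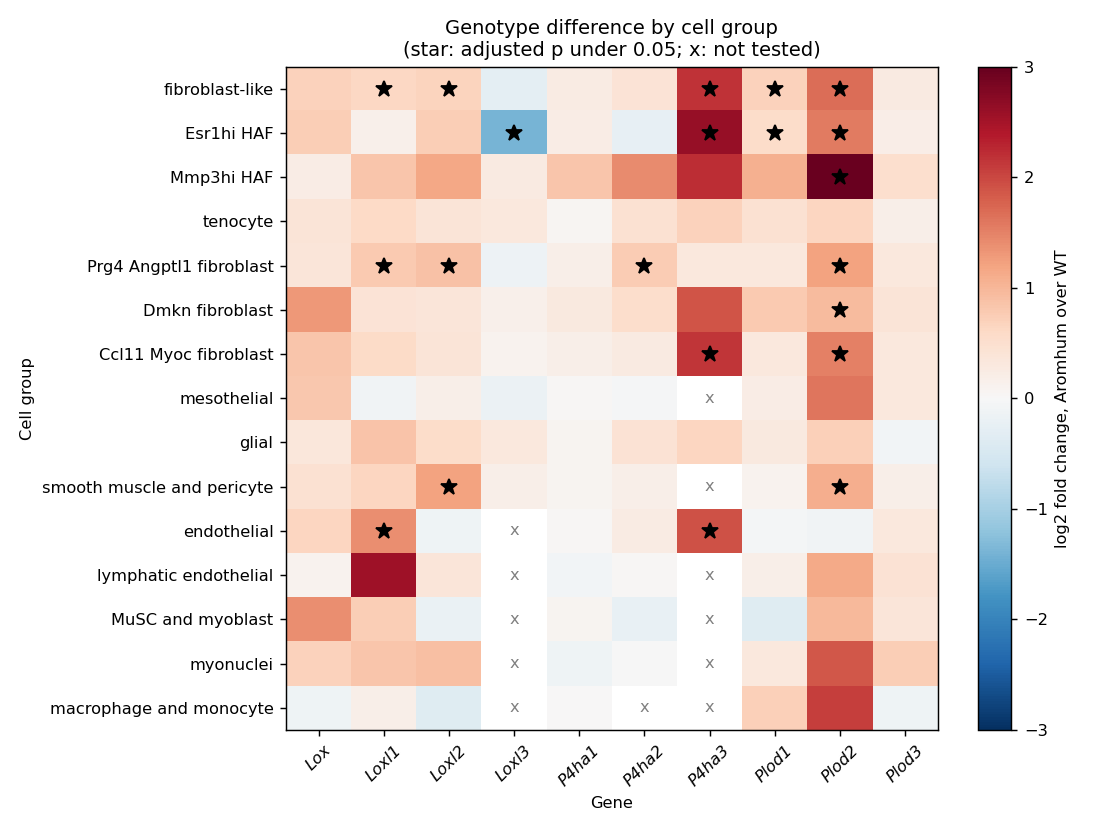
Log2 fold change of Aromhum over WT for each enzyme (columns) in each cell group (rows), in red where higher and blue where lower in Aromhum. Stars mark an edgeR adjusted p under 0.05 and x marks an enzyme with too few UMIs to test. Plod2 has a star in 7 rows, fibroblast-like cells included, and Loxl3 in Esr1hi HAFs (-1.40) is the starred decrease.

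The mean share of cells with a UMI of Plod2 or P4ha3 was also higher in all Aromhum fibroblast-like cells after each cell was thinned to 1000 UMIs, which left out 209 WT and 275 Aromhum fibroblast-like cells below that depth. Plod2 was then seen in 8.10% of WT and 18.5% of Aromhum fibroblast-like cells, and in 14.0% and 32.1% of Esr1hi HAFs (means of 3 mice; unthinned 40.8% and 65.5%, and 56.3% and 92.9%). In the T and mast cell group the thinned share was 0% in both genotypes, at a median of 2056 UMIs per cell against 9756 in fibroblast-like cells. The genotypes overlapped in tenocytes, with Plod2 in 9.64% to 15.1% of thinned WT and 12.5% to 21.9% of thinned Aromhum cells. P4ha3 was seen in 1.04% and 4.54% of thinned fibroblast-like cells (unthinned 9.07% and 31.6%), in up to 4.70% of WT and from 4.34% of Aromhum Esr1hi HAFs, which overlapped, and in 0.0338% and 0.108% of endothelial cells.

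The balance within each family was compared as a share of the family's UMIs in fibroblast-like cells, with an exact two-sided permutation test whose smallest possible p is 0.1 with 3 mice against 3. Plod2 made up 43.8%, 48.0% and 48.8% of lysyl hydroxylase UMIs in WT and 69.2%, 71.0% and 55.3% in Aromhum mice. Its mean was 46.9% ± 2.7 in WT and 65.2% ± 8.6 in Aromhum mice (SD, n = 3 each; exact p = 0.1, adjusted over the 3 families 0.15). P4ha1 made up 50.7%, 51.9% and 51.9% of prolyl 4-hydroxylase alpha UMIs in WT and 38.8%, 40.2% and 43.7% in Aromhum mice (exact p = 0.1, adjusted 0.15). In these cells neither share overlapped between genotypes, and both reached the smallest p this design allows. The level of P4ha1 itself was not lower in Aromhum mice (log2 fold change 0.25, edgeR adjusted p = 0.20). Of the 6 single fibroblast groups, the Plod2 share did not overlap in 3 (Mmp3hi HAFs, Prg4 Angptl1 and Ccl11 Myoc fibroblasts) and overlapped in the other 3. The P4ha1 share did not overlap in Mmp3hi HAFs, Prg4 Angptl1 and Dmkn fibroblasts. In Mmp3hi HAFs both shares leave out WT 2, which had too few cells. No share was tested in a single fibroblast group. In Prg4 Angptl1 fibroblasts Plod2 made up 50.2%, 48.2% and 48.0% in WT and 62.8%, 68.9% and 60.1% in Aromhum mice. In Esr1hi HAFs Plod2 made up 48.4%, 48.2% and 62.5% in WT and 75.0%, 75.8% and 61.1% in Aromhum mice, and P4ha1 made up 42.3% to 53.5% and 40.1% to 44.1%. In tenocytes the Plod2 share was 51.1% to 60.5% in WT and 51.2% to 65.6% in Aromhum mice. Lox made up 45.9%, 28.0% and 30.3% of lysyl oxidase UMIs in WT and 40.7%, 42.0% and 24.8% in Aromhum mice, with full overlap (exact p = 1.0). The UMIs of Loxl4 were not counted in this family. In endothelial cells Plod2 made up 8.19% ± 0.66 of lysyl hydroxylase UMIs in WT and 7.34% ± 0.85 in Aromhum mice (SD, n = 3 each), far from the share in fibroblasts.

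**Figure D5:**
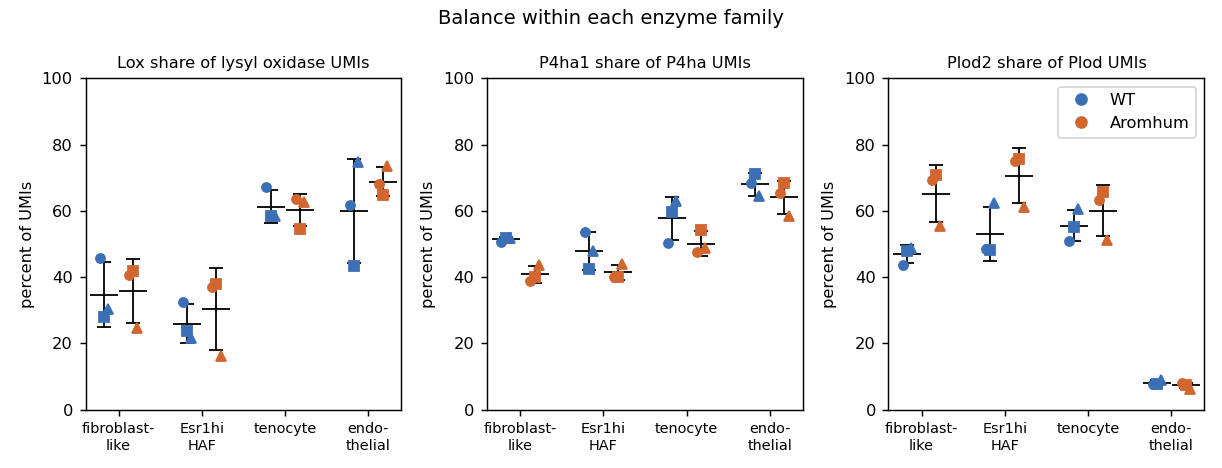
Share of a family's UMIs held by Lox, P4ha1 and Plod2 (percent) in 4 cell groups, by mouse, with Loxl4 not counted. WT mice are blue and Aromhum mice orange, circles, squares and triangles are replicates 1, 2 and 3, and bars show the mean and SD of 3 mice. In fibroblast-like cells the Plod2 share is 43.8% to 48.8% in WT and 55.3% to 71.0% in Aromhum mice.

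Partners of these enzymes in collagen modification moved in both directions in fibroblast-like cells. Within the study's barcode limits 1 of 10923 genes passed in these cells, so at most 1 of all list calls in them holds there. Of 27 tested partner genes, 8 rose, 1 fell and 18 did not pass, beside 7.22% of all genes higher and 5.33% lower, and their median log2 fold change was 0.27 against 0.01 over all genes. Adamts2, which removes the procollagen N-propeptide, rose by 1.12 ± 0.14 (log2 fold change ± SE; edgeR adjusted p = 0.018), and Bmp1, which removes the C-propeptide and activates Lox, by 0.84 ± 0.21 (edgeR adjusted p = 0.047). The transglutaminase Tgm2 rose by 1.36 ± 0.19. In the endoplasmic reticulum, Fkbp10 (0.63 ± 0.14), which works with PLOD2, Fkbp14 (0.48 ± 0.09), P4hb (0.43 ± 0.09), the beta subunit of prolyl 4-hydroxylase, and P3h1 (0.57 ± 0.15) rose, as did the collagen secretion factor Creb3l1 (0.54 ± 0.11), with edgeR adjusted p from 0.020 to 0.050 over Tgm2 and these 5. The procollagen C-proteinase enhancer Pcolce2 fell by 1.01 (SE 0.19; edgeR adjusted p = 0.026). The collagen chaperone Serpinh1 (0.22, edgeR adjusted p = 0.37) and the lysyl oxidase Loxl4 (-0.35, edgeR adjusted p = 0.39) did not pass.

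The substrates of the enzymes rose in part. Of 19 collagen chain and elastin genes, 7 rose, 0 fell and 12 did not pass in fibroblast-like cells, with a median log2 fold change of 0.46. The risers included Col5a2 (0.82 ± 0.15), Col5a1 (0.89 ± 0.16), Col12a1 (0.99 ± 0.19) and Col16a1 (0.50 ± 0.11). Of 10 genes of cofactor supply, Slc39a14, which carries iron and zinc, rose (0.95 ± 0.19, edgeR adjusted p = 0.030) and 9 did not pass. Of 17 hypoxia response genes, Egln3 (2.03 ± 0.22) and Pgk1 (0.85 ± 0.21) rose, Mxi1 fell by 0.64 (SE 0.09) and 14 did not pass, Vegfa and Slc2a1 among them. The calls of the hypoxia and cofactor lists lay near the 12.5% of all genes. The median log2 fold change of the hypoxia list was 0.32, and its summed level was 1660 to 1687 CPM in WT and 1810 to 2349 CPM in Aromhum mice, which did not overlap.

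In Esr1hi HAFs 4 of 26 partners were higher, 6 were lower and 16 did not pass, beside 9.63% of all genes higher and 10.1% lower. Tgm2 (2.93 ± 0.29) and Bmp1 (1.40 ± 0.19) were higher, while Fmod, a proteoglycan of collagen fibrils, fell by 3.15 and Adamts3 fell by 1.93. The lysyl oxidase Loxl4 fell as well (-1.39, SE 0.33, edgeR adjusted p = 0.024). Of 19 collagen chain and elastin genes 7 rose and 1 fell, of 9 cofactor genes 3 rose, and of 17 hypoxia response genes 3 rose and 1 fell, the last near the 19.7% of all genes that passed. In endothelial cells 8 of 25 partners and 13 of 18 collagen chain genes rose and 0 of either list fell, in barcodes whose fibroblast markers also summed higher and where 13.5% of all genes passed. There 1 of 9 cofactor genes rose and 1 fell, and of 17 hypoxia response genes 4 rose and 1 fell. The dissociation genes fell in 6 of 13 cases in Esr1hi HAFs and in 9 of 13 in endothelial cells, and 0 rose in either.

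Across the means of 15 cell groups, which share libraries and depth, each enzyme had close companions by Pearson's r of log2(CPM + 1) between genes, given as a description. Plod2 was most like Fkbp7 (0.979) and Tmed1 (0.978), P4ha3 like Spon2 (0.967) and Col1a2 (0.962), and P4ha2 like Ddah2 (0.959) and Bgn (0.957). Loxl1 was most like Col6a1 (0.968) and Cercam (0.960), Loxl2 like P3h3 (0.968) and Col6a2 (0.963), Lox like Pycr1 (0.953) and Angptl7 (0.947), and Loxl3 like Pxylp1 (0.987) and Twist1 (0.986). Plod1 was most like Socs3 (0.924) and Inafm1 (0.914), Plod3 like Lamp2 (0.946) and Asah1 (0.945), and P4ha1 like Tspan31 (0.970) and Kdelc1 (0.969). Among the enzymes themselves, Plod3 stood closest to P4ha1 (0.881) and Plod1 (0.872). Plod1 and Plod3 reached 0.376 to 0.573 with the 4 lysyl oxidases, while Plod2 reached 0.887 to 0.908.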

How the data were processed

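LAM of 3 WT and 3 Aromhum mice was digested with collagenase II and Dispase and sequenced on the 10x Chromium platform. Per the labels and the study's methods, the authors aligned reads with Cell Ranger 3.0.2 to mm10 with human CYP19A1 added and deposited raw UMI counts per gene and barcode, with no normalization. The 10 enzymes and all lists were chosen with earlier results of these data known, so no list is independent support.

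Every deposited barcode was used. Counts were scaled to 10000 per cell and log-transformed, and 2000 variable genes, 30 principal components, 20 neighbours and Leiden clustering at resolution 0.8 (scanpy 1.11.5) gave the cell groups. Clusters were named from marker lists, with the rule for leaving a cluster unnamed extended after the clusters were seen. Unnamed and neutrophil clusters were not analysed further as groups. Doublets were scored with scrublet and marked above 0.25, which gave 1.10% to 2.40% of barcodes, and were left out only as an alternative. UMIs were summed per mouse and cell group, with at least 20 cells per mouse and at least 2 mice per genotype before any mouse was left out, and tested with edgeR 4.0.16 (TMM, filterByExpr, quasi-likelihood F test, Benjamini-Hochberg adjusted p under 0.05 over all tested genes). edgeR gives no SE, so the SE beside its log2 fold change is the size of that change over the square root of F. limma 3.58.1 (prior count 2) tested differences between cell groups, and DESeq2 1.42.0 was an alternative. Tests were checked on simulated counts with 2-fold and 4-fold changes set in. Of the 2-fold changes 62% passed in fibroblast-like cells, 48% in Esr1hi HAFs and 74% in endothelial cells. Of the 4-fold changes 91% to 96% passed, and 2.80% to 6.08% of calls were false. An enzyme that did not pass may therefore still differ. The mouse is the replicate; per the study, a WT mouse and an Aromhum littermate were processed on each of 3 dates, which the sample numbers do not state. CPM counts UMIs at the 3′ end of transcripts, so levels of different genes are not compared. The family shares are the exception, and they are read only between genotypes and cell groups. Depth limits precision for genes with few UMIs, and free RNA adds UMIs to cells that do not express a gene. All 10 enzymes are described in full. Of the partners those past the threshold in fibroblast-like cells are named, up to 10 by adjusted p, and up to 4 genes of each other list. For likeness, the 2 genes with the highest r outside the enzymes and markers are named. Serpinh1, Vegfa, Slc2a1, Fmod, Adamts3 and Loxl4 and the examples of single cell groups were chosen after their values were seen. Alternatives changed scaling, filters, barcodes, clustering, mice and test. Lox lies on a chromosome whose sequence is not shown here.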

Additional observations from a re-analysis of the deposited data

Results flagged for a closer look

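The genotype difference was unlike in fibroblast-like and endothelial cells for 4 enzymes by a test of the difference itself (limma, adjusted over 11904 genes). The log2 fold changes below are from edgeR and the differences from limma's own fit, so a difference is not their exact gap. Of the 4 enzymes only Plod2 passed in every fit that left out a mouse. For Plod2 the log2 fold change was 1.69 in fibroblast-like and -0.12 in endothelial cells, a difference of 1.72 (adjusted p = 0.010). For Loxl2 it was 0.67 and -0.14, a difference of 0.83 (adjusted p = 0.022). For Plod1 it was 0.68 and -0.06, a difference of 0.73 (adjusted p = 0.029). For Loxl1 it was 0.61 and 1.39, a difference of -0.70 (adjusted p = 0.033), from 16 to 69 Loxl1 UMIs per mouse in endothelial cells. With the blocks of the table's columns as cell groups the differences were 0.69 for Plod2, 0.69 for Plod1, -0.020 for Loxl2 and -1.30 for Loxl1, of which the first pair passed (adjusted p = 0.021 and 0.032).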

How the results depend on the processing

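The share of all genes that passed moved with the setting too. In fibroblast-like cells it was 12.5%, and it fell to 3.42% without HAFs and 0.00915% within the limits. Where no such share is given, a count of enzymes cannot be set against it. In fibroblast-like cells 5 of 10 enzymes passed. The count was 0 within the study's barcode limits, 0 within those limits without HAFs and 3 without HAFs, and ran from 0 to 5 when a mouse was left out. In Esr1hi HAFs 4 passed, 1 in the cluster with most WT cells and 1 to 5 when a mouse was left out; at resolution 0.4 and within the limits no fit was possible for want of cells. In endothelial cells 2 passed, with 1 without a filter on low counts, 1 by DESeq2, 1 (Lox) within the limits, 4 with the blocks of the table's columns as cell groups, 0 under the mitochondrial limit alone and 0 in barcodes without fibroblast UMIs (1 with an unadjusted p under 0.05 in each, by edgeR) and 1 to 2 when a mouse was left out. Over the other cell groups 5 different enzymes passed, with 1 within the limits, 3 at resolution 0.4 and 3 to 8 when a mouse was left out. The difference between fibroblast-like and endothelial cells passed for 4, with 0 within the limits, 2 with the column blocks and 1 to 4 when a mouse was left out. All settings were chosen with earlier results known, and the column blocks, the mitochondrial limit alone, the fibroblast-free barcodes, the largest WT cluster and the limits without HAFs were added after these data were seen.

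The Plod2 share of lysyl hydroxylase UMIs differed by 18.3 percentage points, by 7.82 within the limits and by 15.4 to 23.2 when a mouse was left out. The P4ha1 share differed by -10.6 points, by -6.58 within the limits and by -12.0 to -9.53 when a mouse was left out. The Lox share differed by 1.10 points and turned to -3.78 within the limits, to -0.167 with equal weight of the fibroblast groups and to -2.26 in the lowest of the fits without a mouse (highest 6.68).

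Of 594 comparisons of an enzyme's fold change with another setting, 471 kept its direction and its side of the threshold. Another 86 no longer passed, 6 newly passed and 31 turned in direction. The 471 include enzymes that passed in neither fit, and only an enzyme that passed in the main fit could be among the 86. For the main counts and family shares, 64 comparisons stayed close, 36 moved and 6 turned in direction. On the log2 scale, Loxl3 turned to 0.15 within the limits and 0.19 within the limits without HAFs in fibroblast-like cells. In the cluster with most WT cells, P4ha1 turned to -0.0014, P4ha2 to 0.23 and Plod3 to -0.0038. In endothelial cells, Loxl2 turned to 0.060 within the limits, 0.23 without fibroblast UMIs and 0.75 with column blocks (adjusted p = 0.028), Plod2 to 1.05 with column blocks and P4ha1 to -0.033 under the mitochondrial limit. The difference between cell types turned to -0.023 for P4ha2 within the limits, to -0.020 for Loxl2 and -0.32 for P4ha3 with the column blocks, and to 0.032 for Lox and 0.0049 for Plod3 under the mitochondrial limit. Leaving out a mouse gave -0.057 to 0.35 for Loxl1 and -0.45 to 0.060 for P4ha2 in Esr1hi HAFs. In endothelial cells it gave -0.13 to 0.21 for P4ha1, -0.011 to 0.57 for P4ha2, -0.21 to 0.025 for Plod1 and -0.23 to 0.039 for Plod2. For the difference between cell types it gave -0.58 to 0.48 for Lox, -0.052 to 0.37 for P4ha2 and -0.12 to 0.076 for Plod3. The cause of these changes was not tested.

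Deviations of the same-numbered mice correlated by 0.19, -0.128 and 0.175 in fibroblast-like cells and by 0.209, 0.0808 and 0.328 in endothelial cells, not over 0.1 for every pair, so the numbers were not taken as pairs. Every mouse correlated best with its own number in endothelial cells but not in fibroblast-like cells, where WT 1 correlated better with Aromhum 2 (0.244). With the replicate number as a block, 4 enzymes passed in fibroblast-like cells, 3 in Esr1hi HAFs and 7 over the other groups. In endothelial cells 3 passed (Lox added, edgeR adjusted p = 0.014). The share of all genes that passed with this block is not given, so these counts cannot be set against it.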
